A study of Mus musculus with 12 samples.

Results

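The striated muscle sarcomere and calcium genes are a list of 38 genes for myosins, the thin filament, the Z disc, calcium handling and energy supply of striated muscle, read here in 12 RNA-seq libraries of mouse rectum. Members were taken by gene symbol, and 37 of the 38 stood among the 27785 genes of the table; Myl2 was not analysed here. The unit is the FPKM, which corrects a gene's fragment number for the length of its transcript and for the size of the library, so levels of different genes can be set side by side. The members are matched by name alone, from a list drawn up with earlier results of these data known.

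The groups were Lgr5-Cdx2-Apc (n = 2), Lgr5-Apc (n = 4), Cdx2-Apc (n = 3) and control (n = 3). In the first 3 groups floxed Apc was combined with tamoxifen-inducible Cre driven by both Lgr5 and Cdx2, by Lgr5 alone or by Cdx2 alone. Lgr5 marks intestinal stem cells and Cdx2 marks hindgut epithelium, and whether either driver was active in muscle was not tested. Control samples are titled WT, but their genotype entry also names the Cdx2 driver and floxed Apc, and they lack a tamoxifen entry, while the protocol text of all samples names tamoxifen at 25 mg/kg for 5 days. Whether the controls carried Cre or floxed Apc, or were injected, cannot be told from the labels, and a comparison with control may hold genotype and tamoxifen together. The labels do not say that the samples of a group came from separate animals, so a p-value here reflects how far these samples spread, which may be technical.

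Striated muscle contracts when calcium, let out of the sarcoplasmic reticulum, binds troponin on the actin filament and frees myosin to pull. Fast and slow fibres build this machine from different genes for myosin heavy and light chains, troponins and the calcium pump, and developing or regenerating fibres use embryonic and perinatal myosins. The gut wall itself is made of smooth muscle, whereas the anal canal just beyond the rectum is ringed by a striated external sphincter.

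Total FPKM ran from 451297 to 728462 per library, and depth in reads is unknown. Gene-level Apc was 13.5 and 15.0 FPKM in Lgr5-Cdx2-Apc, 14.1 to 18.6 FPKM in Lgr5-Apc, 15.3 to 17.6 FPKM in Cdx2-Apc and 15.9 to 18.8 FPKM in control, which does not show whether the floxed exons were lost. The 8 columnar epithelium markers that define rectal mucosa summed to 998 and 181 FPKM in Lgr5-Cdx2-Apc and to 1136 FPKM in Lgr5-Apc replicate 2, against 3422 to 5669 FPKM in the other 9 libraries. These 3 libraries stood apart from the rest, and counts of calls among the members and the other lists are given with and without Lgr5-Apc replicate 2.

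The members were high in 3 libraries, both Lgr5-Cdx2-Apc libraries and Lgr5-Apc replicate 2. Summed over the 37 members, the level was 845 and 959 FPKM in Lgr5-Cdx2-Apc, 120, 857, 50.015 and 22.8 FPKM in Lgr5-Apc, 76.5, 62.6 and 66.7 FPKM in Cdx2-Apc, and 65.8, 62.9 and 77.5 FPKM in control. Those 3 libraries were the highest 3 for 31 of the 37 members, the others being Myh7, Tnnc1, Tnni1, Tnnt1, Actn3 and Jph1. In 24 of the 31, Lgr5-Apc replicate 1 came next, at 2.62% (Myh1) to 37.1% (Ckm) of the level in Lgr5-Apc replicate 2, with a median of 7.61%. In bulk tissue, fewer muscle cells and less muscle RNA per cell cannot be told apart.

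**Figure D1:**
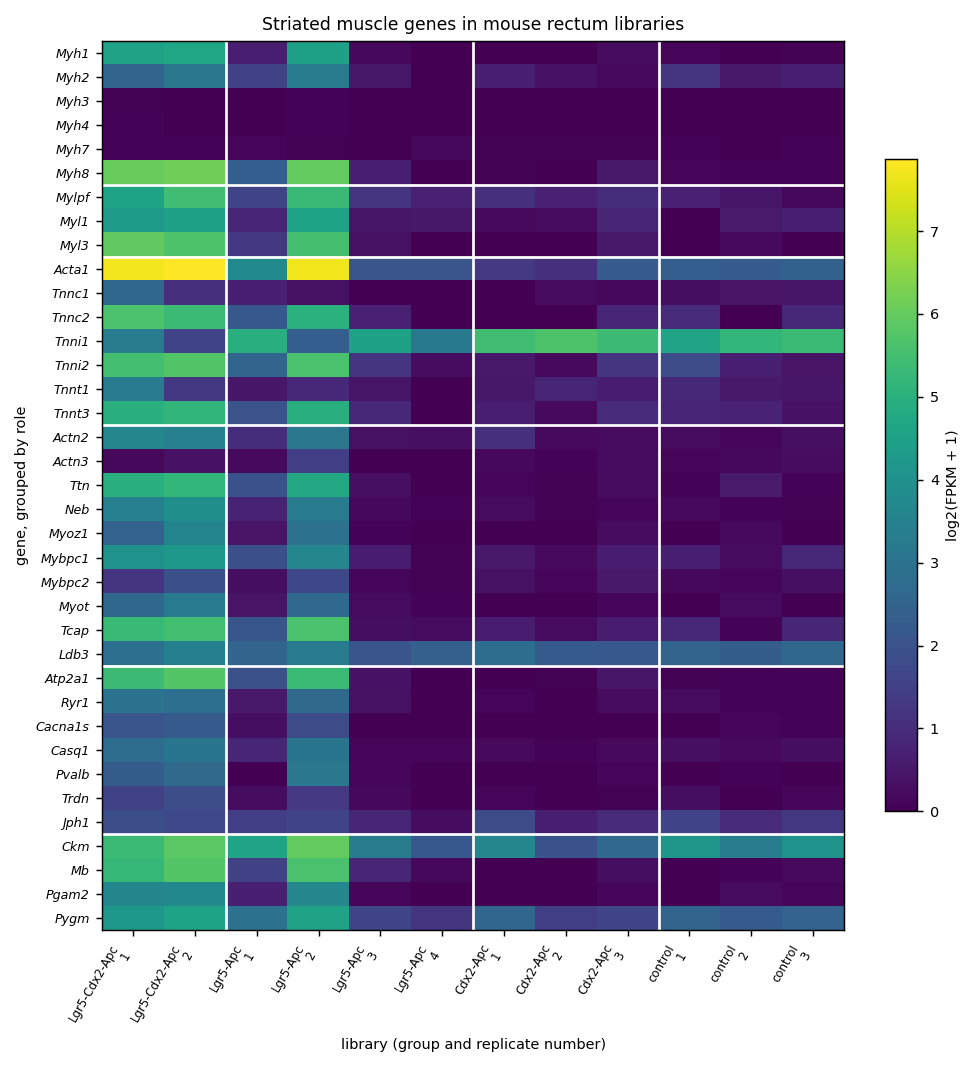
Level of each of the 37 members (rows, grouped by role) in each of the 12 libraries (columns, grouped by genotype), as log2(FPKM + 1) on the colour scale. Both Lgr5-Cdx2-Apc libraries and Lgr5-Apc replicate 2 carry the bright columns, and Tnni1 is the row that is brighter elsewhere.

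Over all 37 members, the value in Lgr5-Apc replicate 2 was 0.0827 times (Tnnc1) to 8.68 times (Actn3) the Lgr5-Cdx2-Apc mean, with a median of 0.922. The ratio lay between 0.5 and 2 for 34 members, the others being Tnnc1, Tnnt1 and Actn3. Across the 37 members, which share library and transcript lengths, Pearson's r of log2(FPKM + 1) was 0.933 and 0.983 between Lgr5-Apc replicate 2 and the Lgr5-Cdx2-Apc libraries, and 0.949 between the Lgr5-Cdx2-Apc libraries. These r values describe genes within single libraries.

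In Lgr5-Cdx2-Apc, genes of every role were higher than in control, and the slow troponin Tnni1 was lower. With limma on log2(FPKM + 1) across all genes, 26 members were called higher and 1 lower at an adjusted p below 0.05, 6 were not called, and 4 (Myh3, Myh4, Myh7 and Actn3) lay below the filter of 1 FPKM in 2 libraries. Of all genes tested in this comparison, 19.1% were called, 10.5% higher and 8.55% lower. Of the 33 members tested, 14 reached 1 FPKM only in Lgr5-Cdx2-Apc or Lgr5-Apc replicate 2 and so had to be higher there to pass the filter. Myh8, Myl3, Tnnc2, Tnnt3, Ttn, Mybpc1, Tcap, Atp2a1 and Mb also passed only through these libraries. Elsewhere they reached 1 FPKM in Lgr5-Apc replicate 1 alone. With no filter, 24 of the 37 were called higher and 1 lower. The median log2 difference of the tested members was 3.31, beside 0.07 over all genes tested. Every Lgr5-Cdx2-Apc library lay above every control library for 34 of the 37 members, a separation that 32.1% of all genes tested showed; 1 member, Tnni1, and 25.3% of all genes tested were separated the other way. Adjusted p-values of called members ran from 0.0142 to 0.0483, and the count of 27 became 30 without Lgr5-Apc replicate 2, 0 without either Lgr5-Cdx2-Apc library, 9 without control replicate 2 and 2 without control replicate 3. Over all genes, calls then numbered 631 and 50 without Lgr5-Cdx2-Apc replicate 1 and 2, and 1244 and 1005 without control replicate 2 and 3, in place of 3315.

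**Figure D2:**
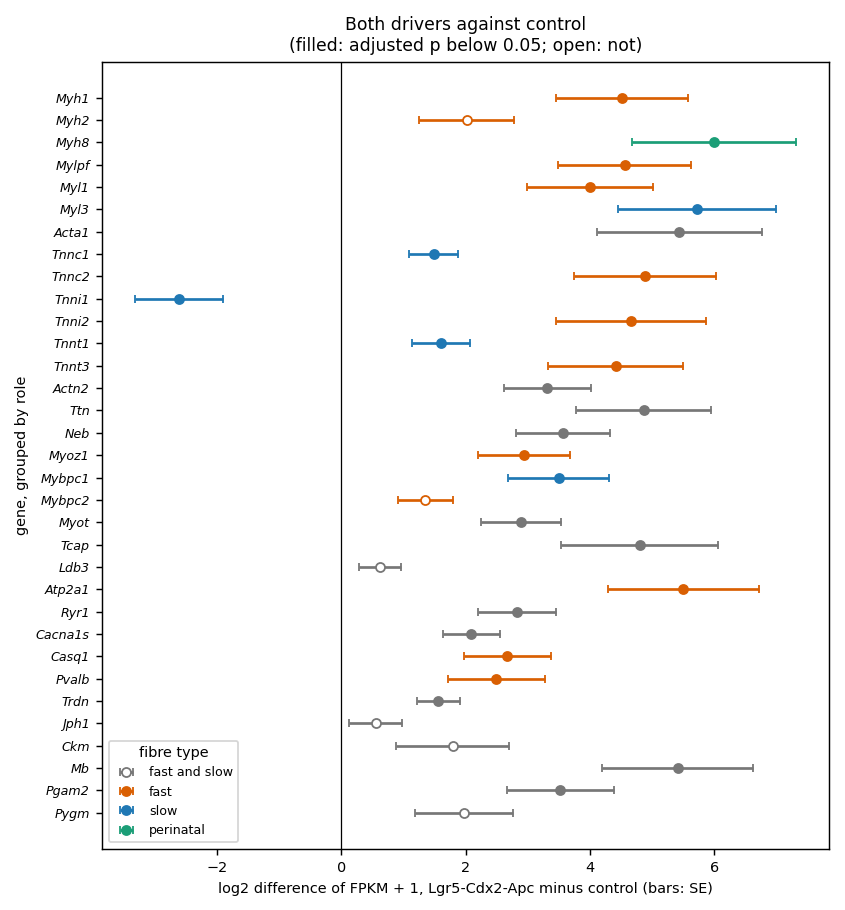
Log2 difference of FPKM + 1, Lgr5-Cdx2-Apc minus control, for the 33 members tested, with bars of 1 SE, filled where the adjusted p is below 0.05 and coloured by fibre type. Points run from -2.61 for Tnni1 to 5.997 for Myh8, and the 6 open points are Myh2, Mybpc2, Ldb3, Jph1, Ckm and Pygm.

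Myosin heavy chains, the motors of the thick filament, were led by the perinatal gene Myh8. Its level was 64.1 and 71.2 FPKM in Lgr5-Cdx2-Apc, 4.04, 62.0, 0.623 and 0.0153 FPKM in Lgr5-Apc, 0.0414, 0.00606 and 0.462 FPKM in Cdx2-Apc, and 0.103, 0.0557 and 0.0631 FPKM in control. The Lgr5-Cdx2-Apc and control libraries did not overlap, and Lgr5-Apc replicate 2 stood with Lgr5-Cdx2-Apc. The log2 difference of Lgr5-Cdx2-Apc from control was 5.997 ± 1.32 (SE; adjusted p = 0.0163).

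Myh1, the fast IIx heavy chain, came second, with 22.0 and 23.8 FPKM in Lgr5-Cdx2-Apc, 0.565, 21.5, 0.124 and 0 FPKM in Lgr5-Apc, 0.0122, 0 and 0.207 FPKM in Cdx2-Apc, and 0.0864, 0.00587 and 0.0410 FPKM in control. Its log2 difference of Lgr5-Cdx2-Apc from control was 4.52 ± 1.06 (SE; adjusted p = 0.0197). Myh2, the fast IIa heavy chain, had 4.90 and 7.59 FPKM in Lgr5-Cdx2-Apc and 1.32, 0.453 and 0.608 FPKM in control, with 1.92, 9.14, 0.420 and 0.0157 FPKM in Lgr5-Apc and 0.618, 0.298 and 0.144 FPKM in Cdx2-Apc. Its difference from control, 2.02 ± 0.77 (SE), missed the threshold (adjusted p = 0.0856). The other heavy chains were near 0 in all libraries: Myh4, the fast IIb gene, reached at most 0.0642 FPKM, the embryonic Myh3 at most 0.0465 FPKM and the slow Myh7 at most 0.120 FPKM.

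Of the summed level of the 6 heavy chains, Myh8 held 70.3% and 69.3% in Lgr5-Cdx2-Apc and 66.8% in Lgr5-Apc replicate 2. The share of Myh1 was 24.1% and 23.2% in Lgr5-Cdx2-Apc and 23.2% in Lgr5-Apc replicate 2, and that of Myh2 was 5.37%, 7.40% and 9.84% in the same libraries. The mix was thus alike in the 3 libraries, at sums of 91.2, 103 and 92.9 FPKM. In Lgr5-Apc replicate 1 Myh8 held 60.97% of a sum of 6.63 FPKM. In control, Myh2 held 78.6% to 83.4%, but of sums of only 0.543 to 1.59 FPKM. The heavy chain genes are near-identical in long stretches, and how the authors' counting shared reads among them is not given in the sources used here, so the split between neighbours is uncertain.

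**Figure D3:**
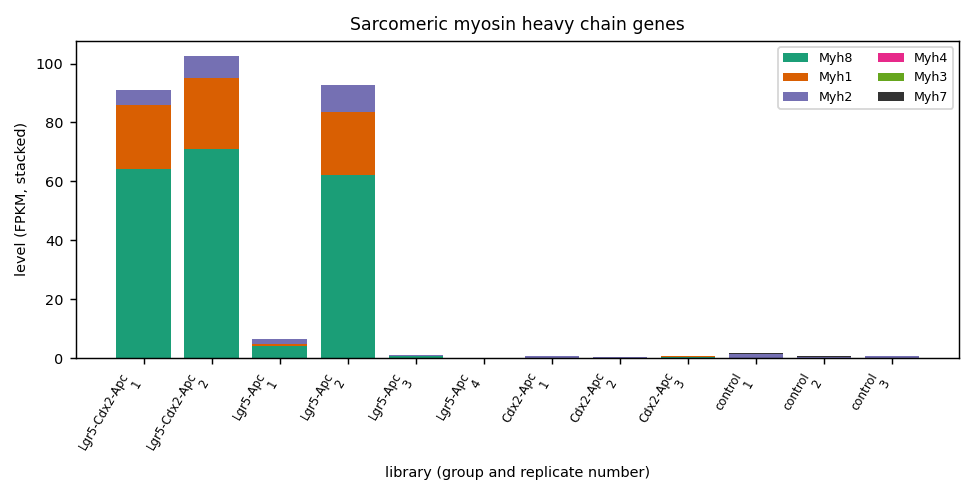
Stacked FPKM of the 6 sarcomeric myosin heavy chain genes in each library. The bars reach 91.2 and 103 FPKM in Lgr5-Cdx2-Apc and 92.9 FPKM in Lgr5-Apc replicate 2, are mostly Myh8 there, and stay at or below 6.63 FPKM in the other 9 libraries.

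Myh2, Myh1, Myh4 and Myh8 stand side by side on chromosome 11 in the same direction, in GENCODE M21 at 67171027 to 67197517, 67200052 to 67224575, 67238029 to 67260446 and 67277124 to 67308634 (plus strand, GRCm38). Their promoters are shown because these neighbours had very different levels, with Myh8 highest and Myh4 near 0. The 250 bases before the RefSeq start of each gene (GRCm38.p6, plus strand) are at chr11:67170777-67171026 for Myh2, chr11:67199852-67200101 for Myh1, chr11:67237562-67237811 for Myh4 and chr11:67276874-67277123 for Myh8. Capitals mark the longest run of bases that all 4 share.
Myh2: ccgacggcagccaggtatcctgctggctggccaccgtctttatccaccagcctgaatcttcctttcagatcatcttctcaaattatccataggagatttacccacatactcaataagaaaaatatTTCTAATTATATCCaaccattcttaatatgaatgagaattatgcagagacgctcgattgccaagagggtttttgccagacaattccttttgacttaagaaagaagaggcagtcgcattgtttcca
Myh1: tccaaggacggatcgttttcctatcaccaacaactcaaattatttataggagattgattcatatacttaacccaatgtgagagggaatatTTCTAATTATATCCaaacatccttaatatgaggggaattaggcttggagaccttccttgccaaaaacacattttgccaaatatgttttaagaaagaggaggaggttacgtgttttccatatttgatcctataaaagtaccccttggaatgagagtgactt
Myh4: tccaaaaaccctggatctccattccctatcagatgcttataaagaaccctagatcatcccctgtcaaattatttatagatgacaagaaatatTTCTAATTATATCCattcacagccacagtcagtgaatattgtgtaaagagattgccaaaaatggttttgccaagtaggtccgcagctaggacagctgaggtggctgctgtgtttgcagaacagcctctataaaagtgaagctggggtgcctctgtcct
Myh8: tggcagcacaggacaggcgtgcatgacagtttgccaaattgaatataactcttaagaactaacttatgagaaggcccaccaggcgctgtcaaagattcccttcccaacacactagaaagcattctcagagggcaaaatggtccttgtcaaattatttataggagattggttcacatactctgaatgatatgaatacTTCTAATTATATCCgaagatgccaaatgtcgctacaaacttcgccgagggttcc

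The shared run, TTCTAATTATATCC, has 14 bases and was found in 4 of 32851 RefSeq windows of this length with both strands searched, those of these 4 genes. It lies 125 to 112 bases before the start in Myh2, 160 to 147 in Myh1, 158 to 145 in Myh4 and 54 to 41 in Myh8. The run stands in the promoter of Myh4, which was near 0, as well as in that of Myh8. The E box CANNTG, the letters that myogenic factors of the MyoD family can bind, occurred 0 times in the Myh2 and Myh1 windows, 2 times in Myh4 and 1 time in Myh8; TATAAA, read on both strands, occurred 0, 2, 3 and 1 times in Myh2, Myh1, Myh4 and Myh8. RefSeq windows could be matched for 29 of the 38 members, 36 windows in all. An E box was in 83.3% of these and in 66.2% of all windows, TATAAA in 22.2% and 12.4%, the CArG box in 13.9% and 1.47%, and the MEF2 box in 2.78% and 0.508%. A match describes letters in a window and shows no binding.

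Myosin light chains, which clasp the neck of the heavy chain, were all higher in Lgr5-Cdx2-Apc than in control. Myl3, the essential light chain of slow fibres and heart ventricle, had 60.1 and 49.5 FPKM in Lgr5-Cdx2-Apc, 1.44, 45.8, 0.287 and 0 FPKM in Lgr5-Apc, 0, 0 and 0.448 FPKM in Cdx2-Apc, and 0, 0.160 and 0 FPKM in control. It was listed at 0 in 2 control libraries and had the largest difference of the light chains, 5.72 ± 1.27 (SE; adjusted p = 0.0166). Mylpf, the fast regulatory light chain, had 22.6 and 42.8 FPKM in Lgr5-Cdx2-Apc, 2.07, 39.5, 1.31 and 0.663 FPKM in Lgr5-Apc, 1.10, 0.636 and 1.04 FPKM in Cdx2-Apc, and 0.665, 0.355 and 0.127 FPKM in control. The difference was 4.56 ± 1.07 (SE; adjusted p = 0.0197). Myl1, the fast essential light chain, had 19.1 and 21.7 FPKM in Lgr5-Cdx2-Apc, 0.781, 22.8, 0.370 and 0.421 FPKM in Lgr5-Apc, 0.158, 0.169 and 0.771 FPKM in Cdx2-Apc, and 0, 0.497 and 0.600 FPKM in control. Its log2 difference from control was 4.00 ± 1.01 (SE; adjusted p = 0.0251).

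On the thin filament, skeletal actin Acta1 had the highest level of any member in the 3 libraries. It was at 211 and 232 FPKM in Lgr5-Cdx2-Apc, 12.6, 205, 3.19 and 3.25 FPKM in Lgr5-Apc, 1.495, 1.09 and 3.74 FPKM in Cdx2-Apc, and 4.15, 3.92 and 4.40 FPKM in control. Lgr5-Apc replicate 1 stood above the other 8 libraries of lower level, and control was not at 0. The log2 difference of Acta1 between Lgr5-Cdx2-Apc and control was 5.43 ± 1.33 (SE; adjusted p = 0.0224).

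Troponin is the calcium switch of the thin filament, with subunits C, I and T that each have a fast and a slow gene. All 3 fast genes were called higher in Lgr5-Cdx2-Apc than in control, where 10.5% of all genes tested were. Tnnc2 and Tnnt3 passed the filter only by being high in Lgr5-Cdx2-Apc or Lgr5-Apc replicate 2. Tnnc2, the fast calcium-binding subunit, had 48.3 and 40.1 FPKM in Lgr5-Cdx2-Apc, 3.51, 31.8, 0.632 and 0 FPKM in Lgr5-Apc, 0, 0 and 0.768 FPKM in Cdx2-Apc, and 0.913, 0 and 0.886 FPKM in control, a difference of 4.88 ± 1.14 (SE; adjusted p = 0.0197). Tnni2, the fast inhibitory subunit, had 44.2 and 52.5 FPKM in Lgr5-Cdx2-Apc, 4.95, 47.4, 1.34 and 0.197 FPKM in Lgr5-Apc, 0.463, 0.149 and 1.34 FPKM in Cdx2-Apc, and 2.44, 0.632 and 0.320 FPKM in control. Tnnt3, the fast tropomyosin-binding subunit, had 30.8 and 35.2 FPKM in Lgr5-Cdx2-Apc, 3.07, 30.5, 0.873 and 0 FPKM in Lgr5-Apc, 0.569, 0.151 and 0.974 FPKM in Cdx2-Apc, and 0.796, 0.734 and 0.308 FPKM in control. Tnni2 and Tnnt3 were higher than in control by 4.66 ± 1.21 and 4.41 ± 1.09 (SE; adjusted p = 0.0271 and 0.0231), with no overlap between those groups.

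The slow troponin genes behaved in 2 ways. Tnnc1 and Tnnt1 were high mainly in 1 library. Tnnc1, the slow and cardiac calcium-binding subunit, had 5.34 and 1.08 FPKM in Lgr5-Cdx2-Apc, 0.616, 0.266, 0 and 0 FPKM in Lgr5-Apc, 0, 0.170 and 0.124 FPKM in Cdx2-Apc, and 0.222, 0.330 and 0.354 FPKM in control. Tnnt1, the slow tropomyosin-binding subunit, had 8.30 and 1.41 FPKM in Lgr5-Cdx2-Apc, 0.406, 0.849, 0.350 and 0 FPKM in Lgr5-Apc, 0.411, 0.772 and 0.544 FPKM in Cdx2-Apc, and 0.858, 0.466 and 0.403 FPKM in control. Both peaked in Lgr5-Cdx2-Apc replicate 1, and Lgr5-Apc replicate 2, high for the fast troponins, was not high for either. Against control the differences were 1.48 ± 0.39 for Tnnc1 and 1.60 ± 0.47 for Tnnt1 (SE; adjusted p = 0.0295 and 0.0395).

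Tnni1, the slow inhibitory subunit, ran the other way. It had 8.81 and 2.01 FPKM in Lgr5-Cdx2-Apc, 29.3, 4.12, 21.8 and 7.98 FPKM in Lgr5-Apc, 43.2, 49.3 and 40.6 FPKM in Cdx2-Apc, and 23.1, 35.7 and 39.9 FPKM in control. Control and Cdx2-Apc were high and every Lgr5-Cdx2-Apc library lay below every control library. The log2 difference was -2.61 ± 0.71 (SE; adjusted p = 0.0314). Tnni1 was the member with the highest level in each of the 9 libraries outside the 3. The 10 smooth muscle markers moved in the same direction, with sums of 102 and 67.6 FPKM in Lgr5-Cdx2-Apc, 753 to 3619 FPKM in Lgr5-Apc, 1719 to 4644 FPKM in Cdx2-Apc and 3334 to 4152 FPKM in control; their part in the Tnni1 result was not tested.

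Z disc and giant proteins anchor and measure the sarcomere, and 7 of the 9 tested were called higher in Lgr5-Cdx2-Apc than in control. Of all genes tested, 10.5% were called higher. All of the 7 but Actn2 passed the filter only by being high in Lgr5-Cdx2-Apc or Lgr5-Apc replicate 2. Actn2, the actinin that crosslinks actin at the Z disc, had 11.5 and 9.72 FPKM in Lgr5-Cdx2-Apc, 1.06, 7.75, 0.286 and 0.240 FPKM in Lgr5-Apc, 1.09, 0.144 and 0.174 FPKM in Cdx2-Apc, and 0.166, 0.0864 and 0.251 FPKM in control. Neb, nebulin, which runs along the thin filament, had 10.04 and 14.0 FPKM in Lgr5-Cdx2-Apc, 0.708, 8.54, 0.125 and 0.0555 FPKM in Lgr5-Apc, 0.166, 0.0367 and 0.0831 FPKM in Cdx2-Apc, and 0.158, 0.0576 and 0.0430 FPKM in control. Neither gene overlapped between Lgr5-Cdx2-Apc and control, and their differences were 3.31 ± 0.70 and 3.57 ± 0.75 (SE; adjusted p = 0.0142 and 0.0144).

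Ttn, the giant spring titin, averaged 33.4 ± 3.34 FPKM in Lgr5-Cdx2-Apc (SD, n = 2) and 0.199 ± 0.255 FPKM in control (SD, n = 3), a difference of 4.86 ± 1.08 (SE; adjusted p = 0.0169). Tcap, the titin cap telethonin, averaged 40.9 ± 3.64 FPKM in Lgr5-Cdx2-Apc and 0.553 ± 0.438 FPKM in control (SD, n = 2 and 3), with a difference of 4.80 ± 1.26 (SE; adjusted p = 0.0286). Mybpc1, the slow myosin-binding protein C, and its fast partner Mybpc2 were unequal: Mybpc1 had 15.0 and 17.4 FPKM in Lgr5-Cdx2-Apc, 2.75, 11.5, 0.545 and 0.0270 FPKM in Lgr5-Apc, 0.466, 0.155 and 0.560 FPKM in Cdx2-Apc, and 0.599, 0.167 and 0.889 FPKM in control, while Mybpc2 was lower throughout the 3 libraries. Mybpc2 had 1.30 and 2.75 FPKM in Lgr5-Cdx2-Apc, 0.215, 2.24, 0.0992 and 0.0297 FPKM in Lgr5-Apc, 0.290, 0.103 and 0.440 FPKM in Cdx2-Apc, and 0.131, 0.0910 and 0.245 FPKM in control. Mybpc1 was called (3.50 ± 0.82, SE; adjusted p = 0.0195) and Mybpc2 was not (1.35 ± 0.44, SE; adjusted p = 0.0567).

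Myoz1, a Z disc partner of calcineurin in fast fibres, and Myot, the Z disc protein myotilin, were called higher at 2.94 and 2.89. Ldb3, a Z disc protein also present at 3.48 to 6.21 FPKM in Cdx2-Apc and 4.04 to 5.34 FPKM in control, had 6.28 and 9.44 FPKM in Lgr5-Cdx2-Apc and was not called (0.62 ± 0.33, SE; adjusted p = 0.198). Actn3, the actinin of fast fibres, was not tested: it had 0.118 and 0.292 FPKM in Lgr5-Cdx2-Apc, 0.137, 1.78, 0 and 0 FPKM in Lgr5-Apc, at most 0.166 FPKM in Cdx2-Apc and at most 0.194 FPKM in control. Lgr5-Apc replicate 2 was thus the 1 library above 1 FPKM for Actn3.

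Calcium release and uptake genes were called higher in Lgr5-Cdx2-Apc than in control for 6 of the 7 tested, where 10.5% of all genes were. These 6 passed the filter only by being high in Lgr5-Cdx2-Apc or Lgr5-Apc replicate 2. Cacna1s, the voltage sensor of the muscle membrane, had 3.25 and 3.68 FPKM in Lgr5-Cdx2-Apc, 0.217, 2.52, 0.00901 and 0 FPKM in Lgr5-Apc, 0, 0.00727 and 0 FPKM in Cdx2-Apc, and 0.0169, 0.0783 and 0.0440 FPKM in control. Trdn, triadin, which ties calsequestrin to the release channel, had 1.95 and 2.64 FPKM in Lgr5-Cdx2-Apc, 0.187, 1.49, 0.127 and 0.0203 FPKM in Lgr5-Apc, 0.108, 0.0111 and 0.0424 FPKM in Cdx2-Apc, and 0.235, 0.0124 and 0.0912 FPKM in control. Both were separated between Lgr5-Cdx2-Apc and control, with differences of 2.09 ± 0.45 and 1.56 ± 0.34 (SE; adjusted p = 0.0155 for each).

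Atp2a1, the fast-fibre pump that returns calcium to the reticulum, had the largest difference of this role. Its level was 40.6 and 53.0 FPKM in Lgr5-Cdx2-Apc, 2.85, 40.1, 0.319 and 0 FPKM in Lgr5-Apc, 0, 0.0416 and 0.376 FPKM in Cdx2-Apc, and 0.0306, 0.0482 and 0.0640 FPKM in control, and the log2 difference was 5.498 ± 1.21 (SE; adjusted p = 0.0163). Ryr1, the release channel, averaged 6.67 ± 0.390 FPKM in Lgr5-Cdx2-Apc and 0.0879 ± 0.0639 FPKM in control (SD, n = 2 and 3; difference 2.82 ± 0.63, SE). Casq1, the calcium store protein of fast fibres, and Pvalb, their soluble calcium buffer parvalbumin, were higher by 2.67 ± 0.71 and 2.49 ± 0.78 (SE; adjusted p = 0.0289 and 0.0483). Jph1, a junctophilin that holds membrane and reticulum together, had 2.73 and 2.35 FPKM in Lgr5-Cdx2-Apc, 1.77, 2.08, 0.807 and 0.204 FPKM in Lgr5-Apc, 2.49, 0.583 and 0.896 FPKM in Cdx2-Apc, and 1.97, 0.971 and 1.40 FPKM in control. Its Lgr5-Cdx2-Apc libraries lay just above the control ones and overlapped Cdx2-Apc replicate 1, and it was not called (0.55 ± 0.43, SE; adjusted p = 0.378).

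Among energy genes, Mb, the oxygen store myoglobin, and Pgam2, the muscle form of phosphoglycerate mutase, were called. Mb had 36.9 and 53.5 FPKM in Lgr5-Cdx2-Apc, 1.94, 47.7, 0.779 and 0.119 FPKM in Lgr5-Apc, 0, 0 and 0.211 FPKM in Cdx2-Apc, and 0, 0.0480 and 0.159 FPKM in control. Pgam2 had 11.3 and 11.8 FPKM in Lgr5-Cdx2-Apc, 0.626, 11.5, 0.0856 and 0 FPKM in Lgr5-Apc, 0, 0 and 0.101 FPKM in Cdx2-Apc, and 0, 0.183 and 0.105 FPKM in control. Both were near 0 outside the 3 libraries and Lgr5-Apc replicate 1, with differences from control of 5.41 ± 1.22 and 3.52 ± 0.86 (SE; adjusted p = 0.0173 and 0.0219). Ckm, muscle creatine kinase, was also present elsewhere: 40.2 and 56.8 FPKM in Lgr5-Cdx2-Apc, 22.9, 61.9, 8.97 and 3.45 FPKM in Lgr5-Apc, 11.6, 2.96 and 5.44 FPKM in Cdx2-Apc, and 17.0, 8.79 and 14.9 FPKM in control. Pygm, muscle glycogen phosphorylase, had 17.2 and 22.6 FPKM in Lgr5-Cdx2-Apc and 4.69, 3.69 and 4.51 FPKM in control. Neither passed the threshold, at 1.79 ± 0.91 and 1.97 ± 0.79 (SE; adjusted p = 0.177 and 0.0989).

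Of the 12 tested genes of fast fibres, 10 were called higher in Lgr5-Cdx2-Apc than in control and 0 lower. Of the 5 tested genes of slow fibres, 4 were called higher and 1 lower. Over all genes tested, 10.5% were called higher and 8.55% lower. Among these genes only Myh2, Mylpf, Tnni2 and Tnni1 passed the filter without the 3 libraries. The others passed it only by being high in Lgr5-Cdx2-Apc or Lgr5-Apc replicate 2. As shares of the summed FPKM of each fast and slow pair, the fast gene held 90.1% and 97.4% of troponin C in Lgr5-Cdx2-Apc and 99.2% in Lgr5-Apc replicate 2. For troponin T the fast share was 78.8%, 96.1% and 97.3% in the same libraries, and for troponin I 83.4%, 96.3% and 92.0%, against 0.795% to 9.57% for troponin I in control. The troponins were thus mostly of the fast kind in the 3 libraries, with Lgr5-Cdx2-Apc replicate 1 holding the largest slow share of each.

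In the other pairs the gene listed as slow held the larger share in the 3 libraries. The fast gene Myl1 held 24.1% and 30.5% of the essential light chain pair in Lgr5-Cdx2-Apc and 33.2% in Lgr5-Apc replicate 2, with the slow gene Myl3 holding the rest. Fast Mybpc2 held 7.96%, 13.7% and 16.3% of its pair with slow Mybpc1 in those libraries. The calcium pump pair sets Atp2a1 against Atp2a2, which slow fibres, smooth muscle and many other cells use: Atp2a2 lay between 68.3 and 106 FPKM in all 12 libraries, so that Atp2a1 held 37.3%, 37.7% and 28.1% in the 3 libraries and at most 0.0737% in control.

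**Figure D4:**
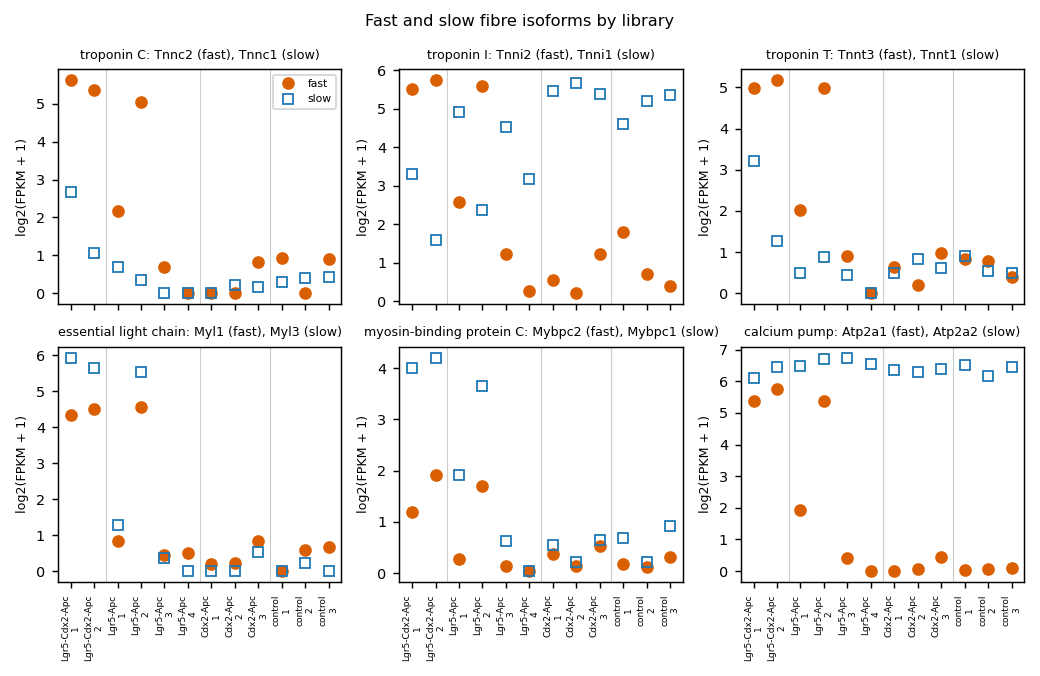
Log2(FPKM + 1) of the fast gene (filled circles) and the slow gene (open squares) of 6 pairs in each library. In both Lgr5-Cdx2-Apc libraries and Lgr5-Apc replicate 2 the fast gene is the higher of the troponin pairs and the slow gene the higher of the light chain, myosin-binding protein C and calcium pump pairs.

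Against Lgr5-Apc, Lgr5-Cdx2-Apc had 5 members called higher and 0 lower, where 8.99% of all genes were called, 5.22% higher and 3.77% lower. These were Tnnc1 at 1.60 ± 0.37, Tnnt1 at 1.79 ± 0.44, Neb at 2.62 ± 0.71, Cacna1s at 1.63 ± 0.43 and Trdn at 1.27 ± 0.32 (SE; adjusted p between 0.0303 for Tnnc1 and 0.0481 for Neb). All 5 passed the filter only by being high in Lgr5-Cdx2-Apc or Lgr5-Apc replicate 2. Tnnc1 and Tnnt1 passed it through Lgr5-Cdx2-Apc alone, so the count is not a neutral one. In each of the 5, both Lgr5-Cdx2-Apc libraries lay above all 4 Lgr5-Apc libraries, as for 17 of the 37 members; 18.1% of all genes tested showed this. The SD of Myh8 in Lgr5-Apc, 30.3 FPKM around a mean of 16.7 FPKM (n = 4), shows the spread that Lgr5-Apc replicate 2 brought. Over all genes, calls in this comparison rose from 1560 to 4453 when Lgr5-Apc replicate 2 was left out. They numbered 551, 1188 and 836 without Lgr5-Apc replicate 3, Lgr5-Apc replicate 4 and Cdx2-Apc replicate 3. Changes in the member counts below thus came with changes over all genes. Without Lgr5-Apc replicate 2, 31 members were called, 30 higher and 1 lower. Without Lgr5-Apc replicate 3 or 4 or Cdx2-Apc replicate 3 the count was 0. Without any 1 of the other 6 libraries outside Lgr5-Cdx2-Apc it was 1 or 2. It was also 0 with a pseudocount of 0.1 FPKM, with the 2 groups alone or with a filter on the mean, and 15 with short RNAs removed, a setting in which 81.5% of the calls over all genes were higher in place of 58.1%.

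Against Cdx2-Apc, Lgr5-Cdx2-Apc had 29 members called higher and 1 lower, where 23.8% of all genes were called, 12.1% higher and 11.7% lower; at an unadjusted p below 0.05 there were 31 members and 39.3% of all genes. Every Lgr5-Cdx2-Apc library lay above every Cdx2-Apc library for 34 of the 37 members and for 33.4% of all genes tested, and below for 1 member, Tnni1, and for 30.4%. The largest difference was in Acta1, at 6.26 ± 1.33 (SE; adjusted p = 0.0117), and the lower gene was again Tnni1, at -3.06 ± 0.71 (SE; adjusted p = 0.0157). Myh2, Ckm and Pygm, not called against control, passed here at 2.41 ± 0.77, 2.83 ± 0.91 and 2.47 ± 0.79 (SE; adjusted p = 0.0452, 0.0463 and 0.0461), while Mybpc2, Ldb3 and Jph1 did not. The comparisons with control and with Cdx2-Apc share the Lgr5-Cdx2-Apc libraries. With Cdx2-Apc replicate 2 left out, the count of 30 became 14, while calls over all genes fell from 4132 to 1554. Leaving out Lgr5-Apc replicate 2 gave 31 calls, while those over all genes rose to 5324. These shifts in the member count thus came with shifts over all genes. Dropping either Lgr5-Cdx2-Apc library left 1 in that group, which cannot show its own spread. Calls then fell among the members and over all genes alike.

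Neither driver alone gave a call. For Lgr5-Apc against control, 0 of the 33 tested members were called by limma and 0 had an unadjusted p below 0.05, where 0.0115% of all genes were called and 10.8% had such a p. For 0 of the 37 members did every Lgr5-Apc library lie above every control library, as was so for 3.96% of all genes tested. The median member difference was 0.95, and Myh8 differed by 2.16 ± 1.11 (SE; adjusted p = 0.487). For Cdx2-Apc against control, 0 members were called and 0 had an unadjusted p below 0.05, where 0.0403% of all genes were called (0.0288% higher and 0.0115% lower) and 1.64% had such a p; the median was -0.06. Every Cdx2-Apc library lay above every control library for 1 member, Tnni1, and for 5.88% of all genes tested, and below for 3 members, Acta1, Tnnc1 and Cacna1s, and for 2.7%. For Lgr5-Apc against Cdx2-Apc, 0 were called and 1 had an unadjusted p below 0.05, Tnni1 at -1.76, where 0.0346% of all genes were called (0.00576% higher and 0.0288% lower) and 10.4% had such a p. For 0 members, and for 4.29% of all genes tested, did every Lgr5-Apc library lie above every Cdx2-Apc library; every one lay below for 1 member, Tnni1, and for 6.76%. The count of called members in each of these comparisons was also 0 without Lgr5-Apc replicate 2.

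Wider lists of muscle genes outside the members, 26 for structure, 16 for calcium and excitation and 16 for metabolism, were split in direction between Lgr5-Cdx2-Apc and control. Of the 23 structural genes tested, 13 were called higher and 4 lower, with a median of 1.24. Of all genes tested in this comparison, 10.5% were called higher and 8.55% lower. Myoz2, a calsarcin of slow fibres and heart, had 6.10 and 4.34 FPKM in Lgr5-Cdx2-Apc, 0.0792, 1.34, 0 and 0 FPKM in Lgr5-Apc and at most 0.141 FPKM elsewhere, a difference from control of 2.55 ± 0.34 (SE; adjusted p = 0.00217). Myoz2 thus passed the filter only by being high in Lgr5-Cdx2-Apc and Lgr5-Apc replicate 2. How many others of these lists passed in that way was not counted. Des, the intermediate filament desmin of all muscle, was lower, with 27.6 and 29.7 FPKM in Lgr5-Cdx2-Apc and 265 to 371 FPKM in control (-3.37 ± 0.56, SE; adjusted p = 0.00597).

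Of the 14 calcium and excitation genes tested, 4 were called higher and 4 lower, and of the 14 metabolic genes, 2 and 3. The medians were 0.66 and 0.00, beside 0.07 over all genes. Beside the 10.5% of all genes called higher and 8.55% called lower, the 2 metabolic genes called higher are near the share over all genes. Without Lgr5-Apc replicate 2 the structural counts were again 13 and 4, and those of the calcium and metabolic genes 7 and 4, and 6 and 3. Over all genes, calls then numbered 4678 in place of 3315. The lower calcium genes included Pln, the pump inhibitor phospholamban, at -2.71, the junctophilin Jph2 at -2.94 and the channel subunit Cacna2d1 at -1.62. The lower metabolic genes were Ppargc1a, a regulator of mitochondrial genes, at -2.40, Cox7a1, a cytochrome oxidase subunit, at -2.71, and Fbxo32, a ubiquitin ligase of muscle atrophy, at -1.34. Pln and Jph2 were at 5.94 to 8.10 FPKM and 15.0 to 28.5 FPKM in control, where the smooth muscle markers were high, and Des is itself on the smooth muscle list; the part of smooth muscle in these values was not tested.

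All 10 smooth muscle markers were called lower in Lgr5-Cdx2-Apc than in control, and 7 of the 8 columnar epithelium markers. Squamous epithelium markers summed to 10757 and 20138 FPKM in Lgr5-Cdx2-Apc, 6.21 to 28623 FPKM in Lgr5-Apc, 16.8 to 721 FPKM in Cdx2-Apc and 64.4 to 4576 FPKM in control, with 2 of 12 called higher. Of all genes tested, 10.5% were called higher and 8.55% lower. Without Lgr5-Apc replicate 2, 10 smooth muscle and 7 columnar markers were again called lower, and 3 squamous markers higher. Calls over all genes then numbered 4678 in place of 3315. The highest sum, 28623 FPKM, was in Lgr5-Apc replicate 2, the Lgr5-Apc library with the high members. Lgr5-Apc replicate 3 had a squamous sum of 15779 FPKM and a member sum of 50.015 FPKM, so the squamous markers and the striated muscle members were not high in all the same libraries. What part the makeup of the tissue pieces had in the member results was not tested.

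**Figure D5:**
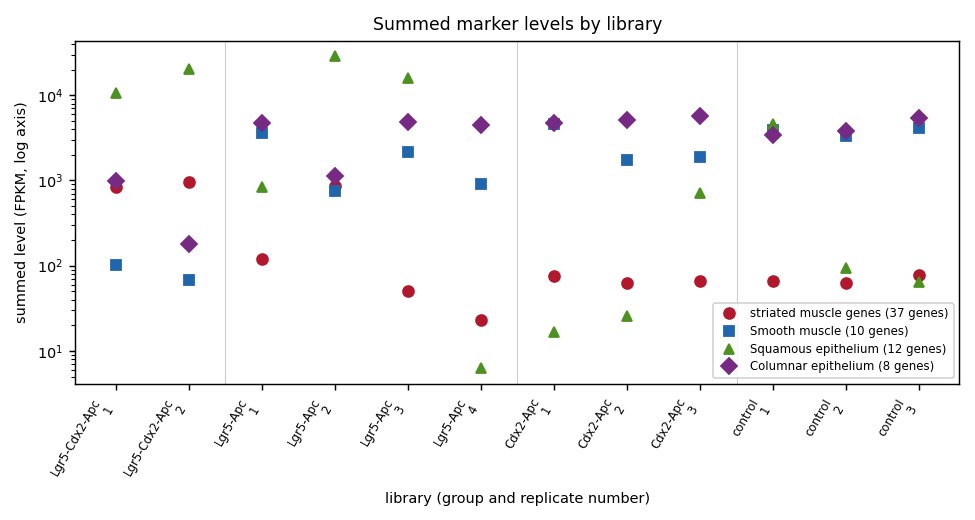
Summed FPKM on a log axis of the 37 striated muscle members and of 10 smooth muscle, 12 squamous and 8 columnar epithelium markers in each library. The members peak at 845, 959 and 857 FPKM in the 3 libraries with the lowest smooth muscle and columnar sums, and Lgr5-Apc replicate 3 has high squamous markers with low members.

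Some members overlap a gene on the opposite strand, and the sources used here do not state whether strand was used in counting, although the library kit keeps it. Tnnc1 overlaps Nisch (at most 76.6 FPKM in any library), Tnnc2 overlaps Ube2c (31.4 FPKM), Atp2a1 overlaps Rabep2 (18.0 FPKM), Mb overlaps Apol6 (5.69 FPKM) and Myl3 overlaps Pth1r (2.31 FPKM). Acta1 overlaps Gm20388, which had 0.132 and 6.93 FPKM in Lgr5-Cdx2-Apc, and 8.9995, 0.00827 and 0.731 FPKM in control; in control replicate 1 it stood above Acta1 itself (4.15 FPKM). Nisch was at 75.9 and 72.0 FPKM in Lgr5-Cdx2-Apc and 45.0 to 57.8 FPKM in control. Tnnc1 was listed at 0 in Lgr5-Apc replicate 3, Lgr5-Apc replicate 4 and Cdx2-Apc replicate 1, where Nisch was at 36.5, 76.6 and 63.4 FPKM. Whether reads of Nisch entered the small values of Tnnc1 was not tested.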

How the data were processed

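RNA-seq was analysed for 12 rectum libraries in 4 groups. Per the labels' protocols, RNA was extracted with RNeasy Plus and DNase and made into NEBNext Ultra II Directional libraries; STAR, Cufflinks, Cuffdiff and mm10 are named in the submitters' processing notes without versions. The authors deposited 1 FPKM value per gene and library, a unit inferred from those tools and the values, since the file header names none. Depth in reads is unknown, so no counting interval was computed and 0 means listed at 0.

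Of 27831 rows, 25 had names turned into dates and were kept unnamed; where a symbol stood on several rows (90 rows), only the one of largest mean entered, giving 27785 genes. The 17360 genes that reached 1 FPKM in 2 or more libraries were tested with limma 3.58.1 in R 4.3.3 on log2(FPKM + 1), pseudocount 1 FPKM, in 1 model with a term per group, with variances moderated by eBayes (trend on). The 6 contrasts were each given Benjamini-Hochberg adjustment over all genes, two-sided, with a gene called below 0.05. Fold changes on this scale understate changes of low genes. The procedure was tested on simulated data. Positions are from GENCODE M21 and promoters from RefSeq.

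The members and all gene lists were chosen with earlier results of these data known. Given library by library are the members of fast and slow pairs and, in each role, the 2 with the smallest p for Lgr5-Cdx2-Apc against control, plus members outside this rule that were picked after their values were seen (Myh2, Actn3, Jph1, Ckm); of other lists, from the 3 with the smallest p, of which 1 gene is not reported here. Lists cover smooth and cardiac muscle, myogenic regulators, the neuromuscular junction, squamous and columnar epithelium, adipocytes and wider muscle genes. Alternatives were a pseudocount of 0.1 FPKM, no filter, a filter on a mean of 5 FPKM, median-of-ratios and quantile scaling, removal of short RNAs, the 2 groups alone, the replicate number as a block, and leaving out each library.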

Additional observations from a re-analysis of the deposited data

Results flagged for a closer look

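In the Lgr5-Apc group, 9 members had Lgr5-Apc replicate 2 far above the other 3 libraries, with a gap to the next library of more than 0.829 of the group's whole range on the log2(FPKM + 1) scale. The values in Lgr5-Apc replicate 2 were 21.5 FPKM for the heavy chain Myh1, 22.8 FPKM for the light chain Myl1, 7.71 FPKM for the calcium buffer Pvalb and 6.60 FPKM for Myoz1 of the Z disc. They were 5.495 FPKM for Myot, 2.52 FPKM for the voltage sensor Cacna1s, 2.24 FPKM for Mybpc2, 1.78 FPKM for Actn3 and 1.49 FPKM for Trdn. The gap was widest for Pvalb, at 0.965 of the range, and narrowest for Trdn, at 0.830. These are 9 of 32 members looked at, all from the same library and so not independent of each other. Only members with at least 1 FPKM in a Lgr5-Apc library were looked at. The 9 reached that level in Lgr5-Apc replicate 2 alone, so the rate of about 5% of groups flagged by chance does not apply to them. On the FPKM scale itself, 25 members would pass the same limit, all with Lgr5-Apc replicate 2 as the high library, among them Myh8 at 0.935 and Mylpf at 0.964 of the range.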

How the results depend on the processing

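For Lgr5-Cdx2-Apc against control the 27 calls became 23 to 29 with another pseudocount, no filter, another scaling, the 2 groups alone or the replicate block, and 14 of 17 tested with a mean of at least 5 FPKM, where fewer members enter. Against Cdx2-Apc the 30 calls became 26 to 31 under those settings and 16 of 17 with the stricter filter. Against Lgr5-Apc the 5 calls became 0 with a pseudocount of 0.1 FPKM, with the stricter filter, with the 2 groups alone and with the replicate block, 3 with no filter and 15 with short RNAs removed; 7 were called with median-of-ratios and 5 with quantile scaling. The cause was not tested. Leaving out 1 library gave 0 to 30 calls against control, 0 to 31 against Cdx2-Apc, 0 to 31 against Lgr5-Apc and 0 to 0 for the 3 comparisons without Lgr5-Cdx2-Apc; a group left with 1 library is assumed to vary like the others. No member that was called changed direction under any setting. Removing short RNAs, 18.3% to 49.7% of the FPKM of a library, moved the median of all genes to 0.16, in place of 0.03, against Lgr5-Apc, and the share of calls that were higher to 66.6%, in place of 55.2%, against control, and to 65.5%, in place of 50.9%, against Cdx2-Apc. With the replicate block, which the numbers do not warrant (5 of 15 same-number pairs correlated above 0.1, median -0.02, and 6 of 12 libraries correlated best with their own number), 24 members were called against control, 27 against Cdx2-Apc and 0 against Lgr5-Apc. Groups of 2 to 4 samples and an unknown depth limit what low values can show.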

Other observations

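Regulators of the muscle lineage were low but stood in the same libraries as the members. Myf6, the myogenic factor most abundant in adult muscle, had 0.825 and 0.772 FPKM in Lgr5-Cdx2-Apc, 0.0440, 0.767, 0 and 0 FPKM in Lgr5-Apc, and was listed at 0 in all Cdx2-Apc and control libraries. Myog, the differentiation factor myogenin, had 0.406 and 0.337 FPKM in Lgr5-Cdx2-Apc and 0.184 FPKM in Lgr5-Apc replicate 2 and was listed at 0 in the other 9 libraries. Pax7, the marker of satellite cells, reached at most 0.0447 FPKM in any library. Mef2c, a cofactor of these regulators that other cells also use, was the 1 gene of this list that passed the filter. Its level was the highest of the list in all 12 libraries, control included. By limma it was not called against control, at 1.03 ± 0.40 (SE, adjusted p = 0.0895). All were named after their values were seen, apart from Mef2c.

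Of the neuromuscular junction genes, 3 passed the filter and 1, Dok7, was called lower in Lgr5-Cdx2-Apc than in control (-1.10 ± 0.29, SE; adjusted p = 0.027). Chrna1, a subunit of the muscle acetylcholine receptor, had 0.299 and 0.515 FPKM in Lgr5-Cdx2-Apc and was listed at 0 in Cdx2-Apc and control; it and Myh6 were likewise named after their values were seen. Cardiac markers gave 0 calls of 6 tested (2 at an unadjusted p under 0.05), and Myh6, the atrial heavy chain, reached at most 0.0858 FPKM. Of all genes tested, 19.1% were called by limma and 36.9% had an unadjusted p under 0.05. Sln, the pump inhibitor sarcolipin, had 6.48 and 33.5 FPKM in Lgr5-Cdx2-Apc, 1.08, 41.6, 0.611 and 0 FPKM in Lgr5-Apc, at most 1.83 FPKM in Cdx2-Apc and at most 1.02 FPKM in control (3.55 ± 1.32, SE; adjusted p = 0.0814). Tnnt2, the cardiac troponin T, had 3.09 and 1.38 FPKM in Lgr5-Cdx2-Apc against 31.7, 4.47 and 11.2 FPKM in control (-2.05 ± 0.85, SE; adjusted p = 0.107), and the cardiac actin Actc1 differed by -0.65 ± 0.32 (SE; adjusted p = 0.164). Without Lgr5-Apc replicate 2, Sln and Mef2c were called higher and Dok7 was again called lower. Adipocyte markers gave 0 calls of 7 by limma and 0 at an unadjusted p under 0.05, with sums of 103 and 37.2 FPKM in Lgr5-Cdx2-Apc, 43.4, 383, 14.9 and 13.9 FPKM in Lgr5-Apc, 3.87 to 21.01 FPKM in Cdx2-Apc and 7.59 to 64.0 FPKM in control. The highest of these sums was again in Lgr5-Apc replicate 2, and the part of fat in the member results was not tested.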
